A study of Mus musculus with 38 samples.

Results

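Spleen cells of 10 DBA/2 mice are compared here, 5 left untreated and 5 taken 2 days after intraperitoneal injection of cyclophosphamide at 83 mg/kg. They were chosen by their titles and are 20 of the 38 arrays of the study, 2 technical arrays for each mouse, which were averaged. The other 9 mice were taken 1 day (4 mice) and 5 days (5 mice) after the same dose, and serve here for the spread between mice and for the time course of named genes. Every array was hybridised with Cy5-labelled splenocyte RNA against Cy3-labelled RNA of a common pool of bone marrow cells from the same strain, with no dye swap. The pool is described as untreated, although its treatment field names the drug, and it is the same on every array of both groups. A value is thus a log2 ratio of spleen over marrow pool, and a difference is day 2 minus untreated on the log2 scale, in which the pool and the dye cancel. Values of single mice are given in the order of their numbers, untreated mice first. Age and sex are not given in the labels, and the mice were harvested independently.

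Cyclophosphamide is a prodrug that the liver turns into an alkylating agent. It cross-links DNA, and cells that are copying their DNA and dividing are the most sensitive to it. The mouse spleen holds mostly B and T lymphocytes, with macrophages of the red pulp that recycle iron from old red cells. In the mouse it also stays a site of blood formation in adult life, with dividing red cell precursors that make heme and install the blood group proteins of the red cell membrane. In RNA from whole splenocytes, fewer cells of a type and less RNA per cell cannot be told apart.

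The array holds 13443 probes. Those measured in 3 or more mice of both groups were tested with limma, 8551 in all, and 6287 of the tested probes match exactly 1 gene (6095 genes). With Benjamini-Hochberg adjustment at 0.05, 679 probes changed (7.94%), of which 267 rose (3.12%) and 412 fell (4.82%), and 1766 had an unadjusted p below 0.05. The falls were larger than the rises. The median difference was -0.83 among probes that fell and 0.75 among those that rose. At least 2-fold falls numbered 145 and at least 2-fold rises 49. At least 4-fold falls numbered 23, and 0 probes rose that far. Past 8-fold there were 6 probes, each of them lower on day 2, and 4 of these name a gene: Alas2, Mgst3, Vav2 and Rhd. The median over all tested probes was 0.005. Of the 5631 probes with a value in all 10 mice, 585 (10.4%) had no overlap between the 2 groups. The genes named for the largest changes and the smallest p were picked among probes without overlap, so the gap in those is part of how they were chosen.

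**Figure D1:**
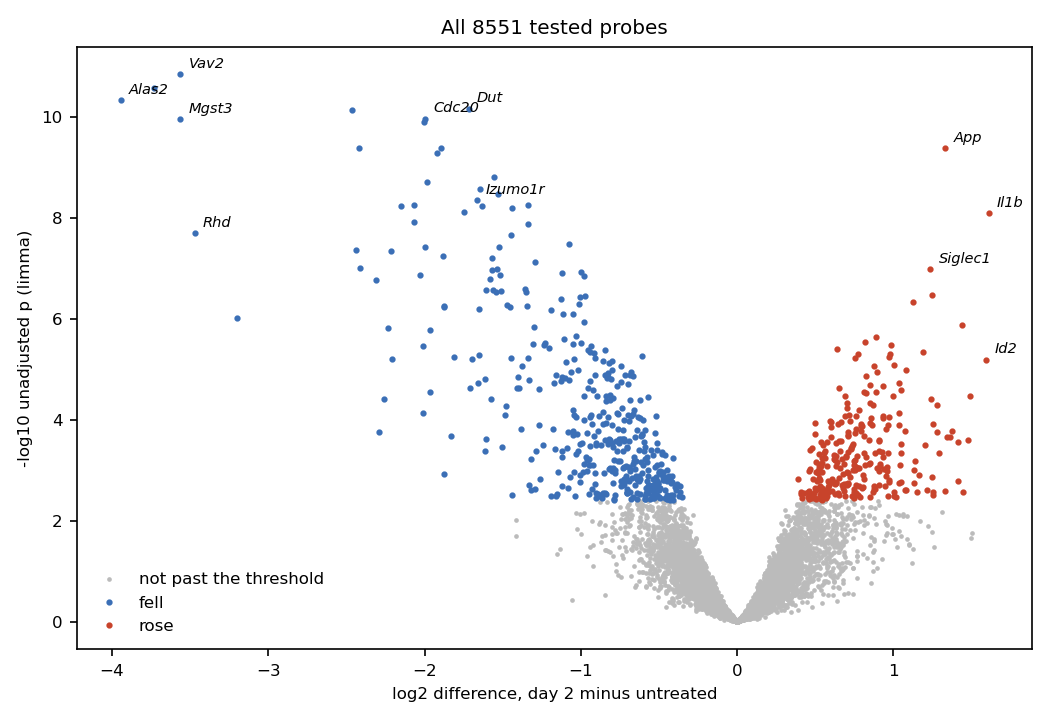
Difference of each of the 8551 tested probes, day 2 minus untreated on the log2 scale (horizontal axis), against the -log10 of its unadjusted limma p (vertical axis). Blue points fell and red points rose past an adjusted p of 0.05, grey points did not pass. The left arm reaches -3.94 (Alas2) and the right arm 1.61 (Il1b).

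The mice of each group were set apart from those of the other by the first principal component of 5631 probes with a value in all 10 mice. It held 32.8% of the variance and ran from -20.4 to -9.70 in untreated mice and from 11.4 to 21.6 on day 2. The 2 arrays of a mouse correlated at 0.581 to 0.944 in untreated mice and at 0.725 to 0.962 on day 2, lowest in untreated mouse 4 (0.581) and untreated mouse 2 (0.651). Within a mouse, the log2 ratios had an SD of 0.41 to 0.53 in untreated mice and 0.506 to 0.699 on day 2, so the day 2 arrays were spread more widely. When the arrays were brought to equal spread, 351 probes changed, 28.2% of them upward, and after quantile normalization 335 changed, 31.9% of them upward, against 39.3% of the 679. Where a call was lost under both scalings, these are meant. Without untreated mice 2 and 4, whose arrays correlated below 0.7, 430 probes changed. Of the 91 genes named here with a call, 26 lost it without these mice, and each of the 26 also lost it with equal spread. Leaving out 1 mouse of the 10 in turn gave 496 probes (without untreated mouse 1) to 653 (without day 2 mouse 4).

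**Figure D2:**
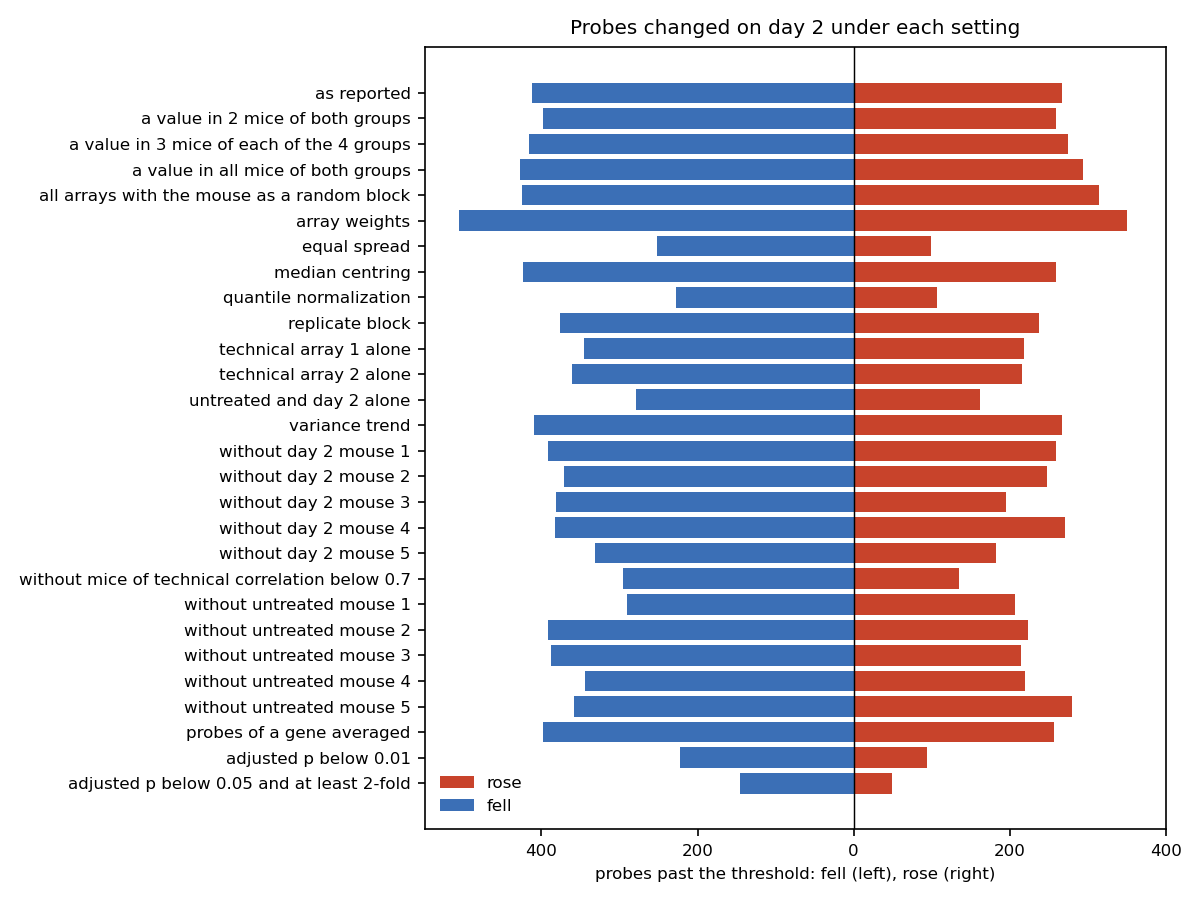
Number of probes past the threshold under each way of processing (vertical axis), with those that fell drawn to the left of 0 and those that rose to the right (horizontal axis, probes). Falls outnumber rises in every bar, from 412 against 267 as reported to 228 against 107 after quantile normalization.

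The B cell genes Ms4a1 and Cd22 lay above the marrow pool in every untreated mouse. Ms4a1, which encodes the B cell antigen CD20, had ratios of 2.05, 1.72, 1.01, 1.28 and 1.79 in the untreated mice, all above the marrow pool. Cd22, an inhibitory receptor of B cells, had 1.44, 1.28, 1.54, 1.32 and 1.78. Not every lymphocyte gene stood so high. Over the 7 B cell genes with a value in all 10 mice, the mean of an untreated mouse ran from 0.05 to 0.52. The T cell gene Cd8a had 0.12, 0.18, 0.00, -0.28 and -0.07 in untreated mice. Granule genes of neutrophils lay below the pool, Ltf (lactoferrin) at -2.17, -3.51, -4.40, -3.96 and -4.10. Several defining markers had few values in these mice. Cd3d and Pax5 had a value in 0 of 10 mice, Cd3e in 1 untreated and 1 day 2 mouse, Cd79b in 1 untreated mouse, and Slc4a1, the anion exchanger of red cells, in 1 untreated mouse. Why a value is missing is not stated.

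Red cell precursor genes had the lowest median difference of the lists with at least 4 tested genes. Of 22 genes listed, 18 were on the array and 13 tested, and 9 of the 13 fell while 0 rose, with a median of -1.16. In this list and in those of red cell membrane genes, mitosis, replication, deoxynucleotides and chromatin, 0 genes were higher even at an unadjusted limma p below 0.05. The lists were chosen with earlier results of these data known, and the red cell lists share members, so this is a description only. Alas2, the erythroid enzyme that starts the making of heme, had ratios of -0.06, -0.29, -0.21, -0.40 and -0.58 in the 5 untreated mice and of -4.41, -3.78, -4.67, -3.42 and -4.98 in the 5 mice of day 2. The highest day 2 value lay far below the lowest untreated one. The difference was -3.94 ± 0.32 SE, a 15.4-fold fall (95% interval 9.76 to 24.3, adjusted p = 1.26e-07 in limma, 5 against 5 mice).

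Promoters of red cell precursor genes and of mitosis genes, lists in which most tested members fell, are shown for the members with the smallest p that hold the searched motif within 250 bases before the start. Sequences are from RefSeq (build GRCm38.p6) and run from 10 bases ahead of the first match to the base before the first listed start. Capitals mark GATAA in the red cell genes, the core of the sites bound by GATA factors, and CCAAT and TTTGAA in the mitosis genes, known from promoters of cell cycle genes. Both strands were searched, so TTATC is GATAA and ATTGG is CCAAT on the other strand. No marked matches overlap.
Alas2 (chrX:150547321-150547416, plus strand): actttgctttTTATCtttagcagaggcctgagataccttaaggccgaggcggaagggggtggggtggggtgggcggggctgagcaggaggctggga
Rhd (chr4:134864484-134864535, plus strand): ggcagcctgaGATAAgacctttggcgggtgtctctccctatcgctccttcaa
Cdk1 (chr10:69352913-69353130, minus strand): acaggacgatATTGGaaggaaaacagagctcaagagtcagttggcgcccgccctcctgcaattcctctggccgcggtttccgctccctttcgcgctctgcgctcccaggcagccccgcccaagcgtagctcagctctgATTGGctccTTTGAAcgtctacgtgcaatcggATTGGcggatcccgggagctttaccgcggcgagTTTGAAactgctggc
Cdc20 (chr4:118437344-118437406, minus strand): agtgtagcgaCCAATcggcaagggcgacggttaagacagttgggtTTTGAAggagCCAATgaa

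In Alas2 the match starts 86 bases before the start and in Rhd 42. GATAA occurred in 5 of the 7 red cell precursor genes that fell and have a sequence, in 3 of the 4 that did not pass, and in 23% of the windows of all 27025 genes. In Cdc20, CCAAT starts 53 and 8 bases and TTTGAA 18 bases before the start. CCAAT occurred in 8 of the 11 mitosis genes that fell and have a sequence, in 7 of 7 that did not pass, and in 34.5% of all windows. TTTGAA occurred in 3 of 11, 3 of 7 and 16.3%. The matches are letters in a window and no sign that a factor binds there.

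Several blood group genes fell with Alas2, though not Rhag, the Rh-associated member. Rhd, the Rh blood group gene, had -0.46, -2.12, -0.22, 0.14 and 0.11 in untreated mice and -4.09, -3.63, -4.58, -3.09 and -4.50 on day 2. Untreated mouse 2 stood below the other untreated mice and still above every day 2 mouse. The difference was -3.47 ± 0.39 SE (an 11.1-fold fall, adjusted p = 6.39e-06 in limma), while a further probe of the gene had -1.33 ± 0.37 SE (adjusted p = 0.0318). Kel, the Kell blood group protein, went from -0.28, -0.30, -1.19, -0.08 and -0.07 to -2.41, -2.52, -3.61, -2.07 and -3.37, a difference of -2.41 ± 0.30 SE (adjusted p = 2.26e-05 in limma). Icam4, the Landsteiner-Wiener blood group protein, had -0.14, -0.59, 0.25, -0.16 and 0.57 without treatment and -2.34, -2.13, -2.82, -0.63 and -3.18 on day 2 (-2.21 ± 0.37 SE), with day 2 mouse 4 closest to the untreated mice. Fut1, which makes the H blood group antigen and belongs to no list here, fell by 2.07 ± 0.23 SE, from 0.07, -1.28, -0.29, -0.61 and -0.42 to -2.18, -2.25, -3.05, -2.81 and -2.59. Kel, Icam4 and Fut1, like Alas2 and Rhd, were picked among probes without overlap, so the gap is part of that choice. For Icam4 the lowest untreated mouse (-0.59) lay just above the highest day 2 mouse (-0.63).

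The membrane and enzyme genes of red cells shared many of these members. Of 14 tested, 8 fell and 0 rose, with a median of -1.10. Prdx2, a peroxiredoxin abundant in red cells, had 0.20, -0.44, 0.05, 0.37 and 0.40 untreated and -2.82, -1.65, 0.10, -1.30 and -2.89 on day 2, and day 2 mouse 3 stayed within the untreated range (-1.83 ± 0.41 SE, adjusted p = 0.00682). Ank1, the ankyrin of the red cell skeleton, fell by 1.61 ± 0.36 SE. Car2, a carbonic anhydrase, had -1.88 ± 0.50 SE, Zfpm1, the cofactor FOG1 of GATA1, -1.29 ± 0.37 SE, and Ermap, the Scianna blood group protein, -0.91 ± 0.26 SE. The transferrin receptor gene Tfrc had -0.86 ± 0.26 SE and Tspo2 -1.16 ± 0.27 SE. Of these, Tfrc lost its call without any 1 of the 10 mice (-0.926 to -0.789), Zfpm1 without any 1 of day 2 mice 1, 2 and 5 and the 5 untreated mice (-1.33 to -1.07), Ermap without any 1 of day 2 mice 1, 3 and 5 and untreated mice 1, 3 and 5 (-0.936 to -0.79), and Car2 without day 2 mouse 2 or 5 or untreated mouse 1 (-1.83 to -1.21). Equal spread ended the calls of Car2, Zfpm1, Ermap, Tfrc and Tspo2, quantile normalization those of Zfpm1, Ermap, Tfrc and Tspo2, and the replicate block that of Zfpm1. Members that did not pass were Rhag (-0.16 ± 0.29 SE), the red cell pyruvate kinase gene Pklr (-0.21 ± 0.19 SE) and the carbonic anhydrase gene Car1 (-0.07 ± 0.19 SE). Pklr lacked values in some mice of both groups.

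A gene each for globin and for the master regulator of red cell formation did not pass. Hba-a1, which encodes an alpha globin and has a near-identical neighbour copy, had -0.70, -0.41, -0.05, -0.43 and -0.73 in untreated mice and -0.40, -0.31, -0.62, -0.37 and -1.28 on day 2, and the groups overlapped (-0.13 ± 0.18 SE, adjusted p = 0.719). Gata1 had -0.02, -1.77, -0.19, -0.10 and 0.00 without treatment, with mouse 2 alone at the bottom, and -1.04, -0.86, -1.08, -0.47 and -1.13 on day 2 (-0.50 ± 0.26 SE, adjusted p = 0.287). Without untreated mouse 2 Gata1 was -0.84 and passed (adjusted p = 0.00296 in limma). Of the red cell precursor genes, 4 to 9 fell over the scalings and single mice left out: 5 after quantile normalization, 4 with equal spread, 5 without untreated mice 2 and 4, and 6 without untreated mouse 1 or day 2 mouse 5. Ank1 missed the threshold under the first 3 of these.

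In the heme synthesis and iron list, 5 of 12 tested genes fell and 1 rose, with a median of -0.30. Fech, which inserts iron into heme, had -0.08, -0.29, -0.14, 0.27 and 0.10 untreated and -2.42, -2.50, -0.21, -0.98 and -1.55 on day 2 (-1.51 ± 0.35 SE, adjusted p = 0.00951); day 2 mouse 3 overlapped the untreated mice. Ppox, an earlier enzyme of the path, fell by 1.29 ± 0.31 SE and the mitochondrial transporter gene Abcb10 by 1.44 ± 0.42 SE, over 4 untreated and 4 day 2 mice. The call of Abcb10 was lost without any 1 of day 2 mice 1 and 2 and untreated mice 1 to 4, where its value ran from -1.46 to -0.967 (adjusted p = 0.0749 to 0.121). The iron exporter gene Slc40a1, ferroportin, went the other way, from 1.66, 1.39, 1.38, 1.42 and 1.65 in untreated mice to 2.18, 2.07, 3.22, 3.54 and 2.76 on day 2, with no overlap (1.25 ± 0.26 SE, adjusted p = 0.00457 in limma). The ferritin genes Fth1 (0.49 ± 0.28 SE) and Ftl1 (0.44 ± 0.41 SE) did not pass. Without day 2 mouse 1 or 2, or untreated mouse 1, 2, 3 or 4, the falls in the list were 3. Quantile normalization and equal spread each ended the calls of Slc40a1, Ppox and Abcb10.

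Most tested mitosis genes fell. Of 51 listed, 39 were on the array and 22 tested, 14 of the 22 fell and 0 rose, with a median of -1.07. Over the 17 members with a value in all 10 mice, the mean ratio of a mouse ran from -0.76 to -0.24 without treatment and from -1.97 to -1.37 on day 2. Cdc20, the activator of the anaphase-promoting complex, whose promoter is printed above, had -0.33, -0.81, -0.50, -0.22 and -0.51 in untreated mice and -2.43, -2.76, -2.61, -2.18 and -2.37 on day 2 (-1.99 ± 0.17 SE, 3.98-fold lower, adjusted p = 1.37e-07 in limma). Cdk1, the kinase of mitotic entry, had -0.15, -0.10, -0.27, -0.13 and -0.33 untreated and -2.16, -2.09, -2.40, -1.52 and -2.27 on day 2 (-1.90 ± 0.17 SE, adjusted p = 3.29e-07). The values of each gene lay close together within a group, and the gap between the groups was wider than either.

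Spindle and chromosome cohesion genes followed. Nusap1, a microtubule-binding protein of the spindle, had -0.26, -1.29, -0.35, -0.40 and -0.47 untreated and -2.65, -2.10, -3.23, -2.29 and -2.64 on day 2 (-2.03 ± 0.26 SE), with untreated mouse 2 the lowest of its group. Sgo1, which protects cohesion at centromeres, went from -0.63, -0.39, -0.04, -0.08 and 0.00 to -2.45, -1.83, -2.79, -1.71 and -2.70 (-2.07 ± 0.22 SE). Esco2, the acetyltransferase that establishes cohesion during replication and belongs to no list here, had -1.92 ± 0.18 SE (adjusted p = 3.80e-07 in limma), and Prc1, which bundles microtubules between the separating chromosomes, -1.57 ± 0.19 SE. Cks2, a partner of cyclin-dependent kinases, had -1.52 ± 0.18 SE, Tpx2 -1.62 ± 0.29 SE, the kinetochore gene Nuf2 -1.53 ± 0.19 SE and the passenger complex gene Cdca8 -1.87 ± 0.26 SE. Members without a call included the kinesin Kif11 (-0.69 ± 0.25 SE, adjusted p = 0.105), which passed without day 2 mouse 3 (-0.94) or untreated mouse 3 (-0.88), the proliferation marker Mki67 (-0.35 ± 0.18 SE), the kinase Plk1 (-0.03 ± 0.17 SE) and cyclin A2, Ccna2. Mki67 and Plk1 lacked values in both groups, so they rest on fewer mice. For Ccna2 the untreated mice had -0.49, -0.74, -0.18, -0.85 and -0.31 and the day 2 mice -1.14, -0.67, -0.11, -0.37 and -0.22, which overlapped (0.01 ± 0.23 SE). The number that fell was 9 of 22 after quantile normalization, with equal spread and without untreated mice 2 and 4, and the median under the first pair of settings was -0.70 and -0.75.

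**Figure D3:**
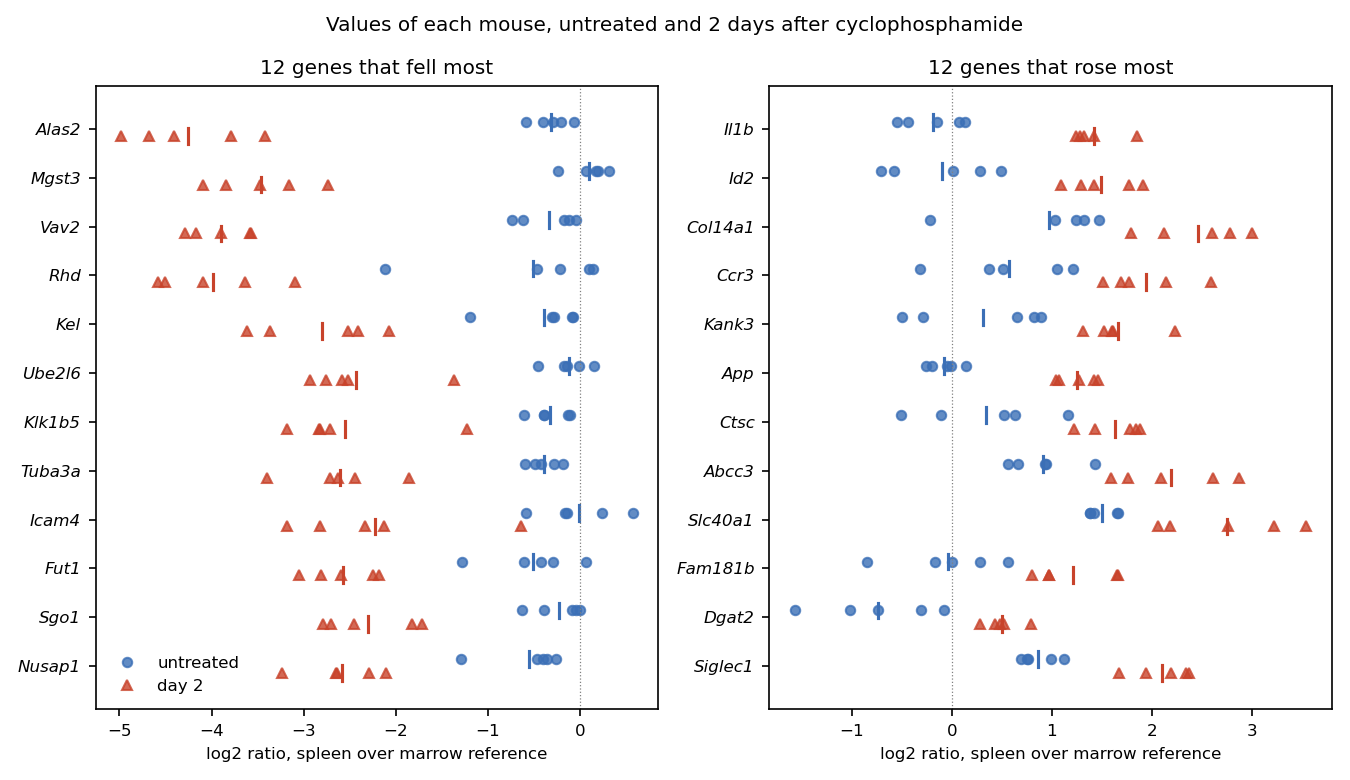
Log2 ratio of spleen over marrow reference in each mouse (horizontal axis) for the 12 genes that fell most (left) and the 12 that rose most (right) among genes with a value in all 10 mice and no overlap between groups. Circles are untreated mice, triangles day 2 mice and short bars group means; Rhd, Kel and Nusap1 have 1 low untreated mouse each, and Icam4, Ube2l6 and Klk1b5 have 1 high day 2 mouse each.

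Some genes that make DNA and its building blocks fell too, though fewer than those without a call. In the DNA replication list 9 of 20 fell and 0 rose (median -0.47), and in the deoxynucleotide supply list 3 of 11 fell and 0 rose (median -0.40). Dut, the dUTPase that keeps uracil out of DNA, had 0.22, 0.01, -0.17, 0.17 and 0.17 untreated and -1.68, -1.58, -1.75, -1.40 and -1.78 on day 2 (-1.72 ± 0.14 SE, 3.29-fold lower, adjusted p = 1.26e-07 in limma). Tyms, which makes thymidylate, went from 0.16, -0.40, -0.52, -0.18 and 0.23 to -1.71, -1.72, -1.93, -0.86 and -2.05 (-1.51 ± 0.20 SE), and day 2 mouse 4 fell least. The 5 untreated values of both genes lay above all day 2 values. Rrm2, the regulated subunit of ribonucleotide reductase, had -0.23, -0.06, 0.08, 0.11 and 0.05 untreated and -2.42, -1.85, -0.54, -0.39 and -0.27 on day 2, and mice 1 and 2 of day 2 stood below the rest (-1.08 ± 0.31 SE, adjusted p = 0.0346). Its call was lost without any 1 of day 2 mice 1 and 2 and the 5 untreated mice (-1.14 to -0.753, adjusted p = 0.0501 to 0.0943), and under both scalings.

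Cdc6 (-1.38 ± 0.30 SE) and Mcm6 (-1.12 ± 0.26 SE), which license replication origins, fell, as did the histone chaperone gene Asf1b (-1.45 ± 0.20 SE) and the ligase gene Lig1 (-0.89 ± 0.26 SE). Pcna, the sliding clamp, had -0.13, -1.74, -0.27, 0.06 and -0.31 in untreated mice and -1.47, -1.41, -1.54, -1.33 and -1.45 on day 2 (-0.96 ± 0.24 SE, adjusted p = 0.0133 in limma). The day 2 mice differed little among themselves, and untreated mouse 2 lay below all of them. Mcm5 (0.03 ± 0.23 SE) and Mcm4 (-0.34 ± 0.22 SE), of the same helicase as Mcm6, did not pass. Mcm5 lacked a value in a mouse of each group. Lig1 lost its call without any 1 of day 2 mice 1, 2, 4 and 5 and untreated mice 1, 2, 4 and 5 (-0.905 to -0.767, adjusted p = 0.0579 to 0.102), and also under either of the alternative scalings, quantile and equal spread. Without day 2 mouse 2 or day 2 mouse 5 the falls in the replication list were 5, and with equal spread 3, with Pcna and the initiation factor gene Mcm10 (-0.95 ± 0.23 SE) among the losses.

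Of 10 genes in the list of histones and chromatin assembly 4 fell and 0 rose (median -0.60). Hmgb3, a high mobility group protein, had -0.05, -0.01, -0.12, 0.07 and 0.19 untreated and -1.38, -1.58, -1.97, -1.32 and -1.82 on day 2 (-1.63 ± 0.17 SE, adjusted p = 2.43e-06 in limma). The histone variant gene H2az1 (-1.01 ± 0.14 SE), the lamin gene Lmnb1 (-1.11 ± 0.17 SE) and H3f3a (-0.74 ± 0.17 SE) fell, H3f3a without a call after quantile normalization (-0.56) or with equal spread (-0.56). The methyltransferase genes Dnmt1 (-0.46 ± 0.21 SE) and Ezh2 (-0.33 ± 0.15 SE) did not pass. Among cyclins and their regulators 1 of 11 fell, the kinase inhibitor gene Cdkn2c (-1.01 ± 0.14 SE, adjusted p = 5.66e-05), while Myc had -0.12 ± 0.16 SE and Foxm1 0.10 ± 0.14 SE. The repair list of 14 genes held 1 that fell, Brca1, from -0.08, -0.20, -0.26, -0.38 and -0.07 to -1.95, -1.14, -1.27, -0.54 and -1.87 (-1.16 ± 0.20 SE). Parp1, which lacked values in some mice of both groups, had 0.16 ± 0.26 SE and Msh6 -0.26 ± 0.14 SE. As 4.82% of all probes fell, 1 fall does not set the cyclin list or the repair list apart.

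**Figure D4:**
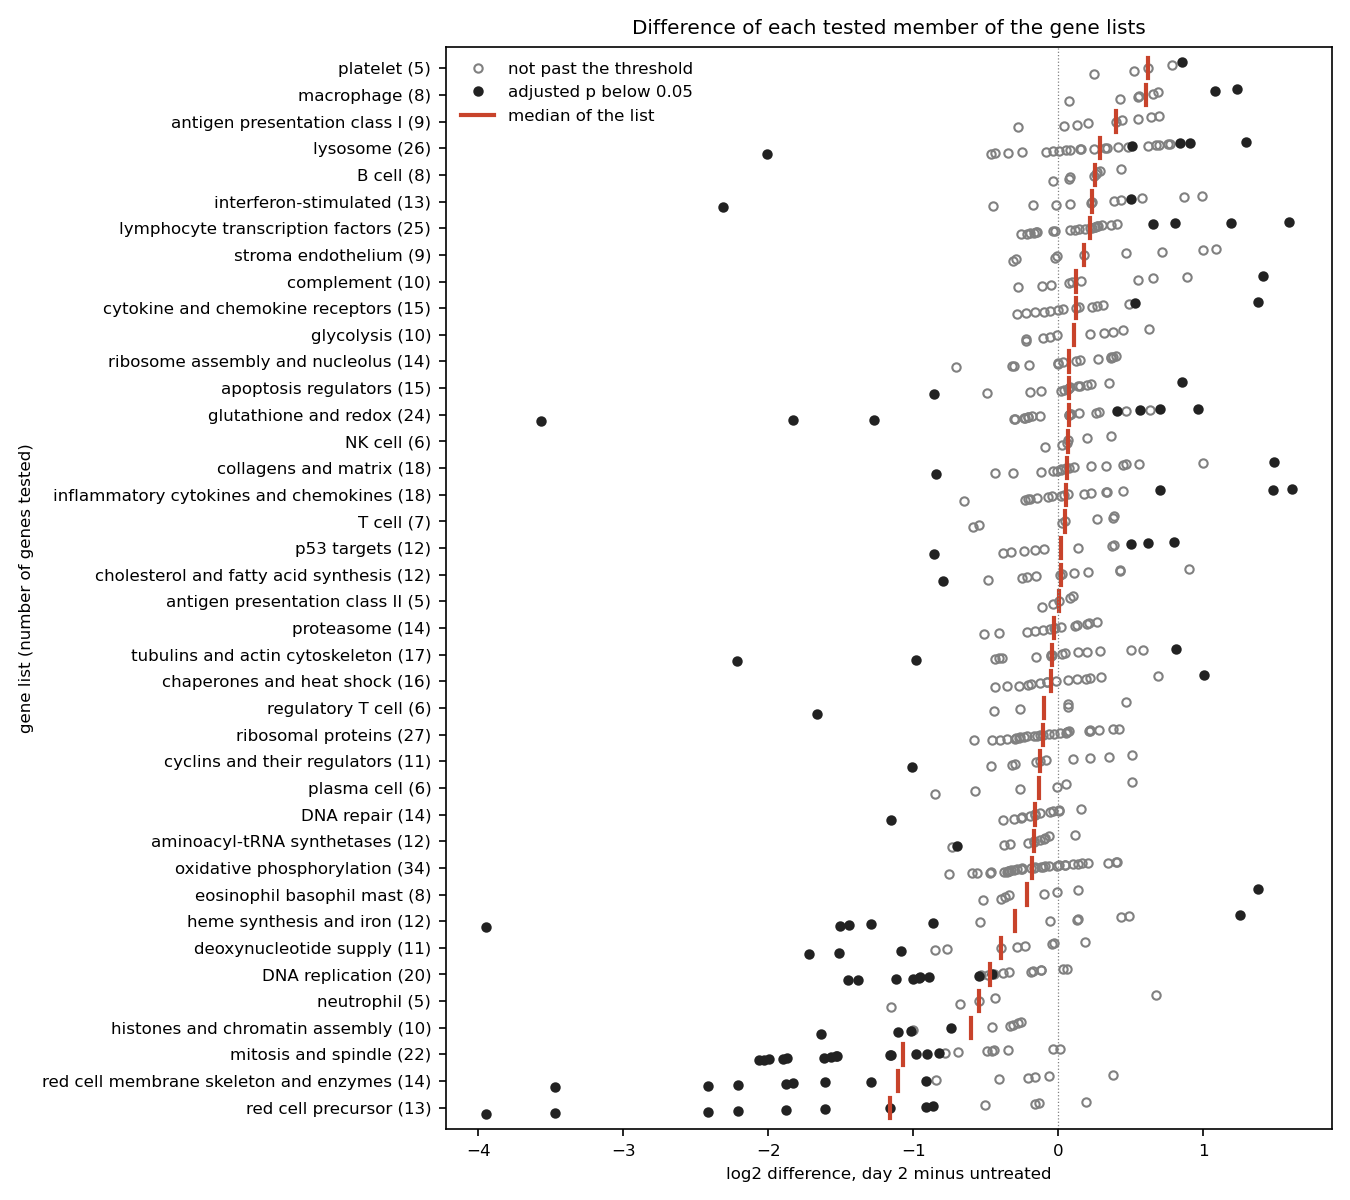
Log2 difference, day 2 minus untreated (horizontal axis), of each tested gene in the lists with more than 4 tested genes (vertical axis, number tested in brackets), ordered by the median, which is drawn in red. Filled points passed an adjusted p of 0.05; the 2 red cell lists, the mitosis list and the chromatin list stand lowest, at -1.16, -1.10, -1.07 and -0.60.

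Large falls were also found outside the red cell and cell division lists. Vav2, a guanine nucleotide exchange factor, had -0.17, -0.04, -0.12, -0.61 and -0.73 without treatment and -3.90, -3.57, -4.29, -3.58 and -4.17 on day 2 (-3.56 ± 0.27 SE, 11.8-fold lower, adjusted p = 1.13e-07, the smallest of all). Mgst3, a microsomal glutathione transferase, had 0.20, 0.17, -0.24, 0.06 and 0.31 untreated and -3.47, -3.16, -4.10, -2.74 and -3.84 on day 2 (-3.57 ± 0.30 SE, 11.8-fold lower). Neither gene's groups came within 2 log2 units of each other. Ube2l6, which conjugates ISG15, had 0.15, 0.00, -0.17, -0.14 and -0.45 untreated and -2.52, -2.59, -2.75, -1.36 and -2.93 on day 2 (-2.31 ± 0.30 SE). Snx24, a sorting nexin, had -1.98 ± 0.20 SE (adjusted p = 1.22e-06), and Oaz3, an antizyme known from testis, -1.55 ± 0.15 SE. Klk1b5, of the kallikrein family, went from -0.12, -0.11, -0.39, -0.61 and -0.38 to -1.23, -2.82, -2.83, -3.18 and -2.72 (-2.23 ± 0.34 SE) and the alpha tubulin gene Tuba3a from -0.18, -0.28, -0.48, -0.42 and -0.59 to -1.85, -2.44, -3.40, -2.62 and -2.71 (-2.22 ± 0.26 SE). Klk1b5 and Tuba3a belong to families of close relatives, and whether the probes tell them apart is not stated.

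Redox genes split. Of 24 tested, 4 rose and 3 fell, with a median of 0.07. Besides Mgst3 and Prdx2, the glutathione peroxidase gene Gpx1 fell, from -0.36, -0.41, -0.34, -0.39 and 0.18 to -0.87, -1.13, -1.86, -1.82 and -1.98 (-1.27 ± 0.23 SE, adjusted p = 0.00138 in limma). Prdx1, a further peroxiredoxin, rose from 1.05, 0.91, 0.66, 0.72 and 1.10 to 1.38, 1.43, 1.61, 1.63 and 1.91 (0.70 ± 0.14 SE), and Txnip, the inhibitor of thioredoxin, from 0.24, -0.20, -0.12, 0.17 and 0.18 to 0.88, 0.99, 0.87, 1.08 and 1.28 (0.96 ± 0.20 SE). No untreated mouse reached the day 2 values of either. Txnrd1 (0.56 ± 0.14 SE) and Gpx3 (0.41 ± 0.12 SE) rose, and the stress regulator gene Nfe2l2 (-0.21 ± 0.17 SE) and its target Nqo1 (-0.31 ± 0.20 SE) did not pass. Gpx3 lost its call without any 1 of day 2 mice 1, 2 and 5 and untreated mice 1, 2, 4 and 5 (0.342 to 0.417, adjusted p = 0.0627 to 0.118), under quantile normalization and equal spread, and with the replicate block. Prdx1 and Txnip missed the threshold with equal spread, and Prdx1 also after quantile normalization, where it was 0.29 (0.37 with equal spread).

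Few macrophage genes passed the threshold. All 8 tested members had differences above 0, with a median of 0.61, and 2 rose while 0 fell. Of all probes 3.12% rose, and 2 calls in a list this short do not set it apart. After quantile normalization, with equal spread, or without untreated mice 2 and 4, 1 of the 8 was called. Siglec1, a macrophage receptor for sialic acid, had 0.69, 1.12, 0.75, 0.76 and 1.00 in untreated mice and 2.37, 1.94, 2.34, 1.67 and 2.19 on day 2 (1.24 ± 0.16 SE, 2.35-fold, adjusted p = 2.27e-05 in limma), with a clear gap between the groups. Mrc1, the mannose receptor, had 0.02, -0.09, -0.01, -0.66 and 0.13 untreated and 1.25, 1.21, 0.09, 0.21 and 2.00 on day 2, and day 2 mice 3 and 4 lay beside the untreated ones (1.08 ± 0.31 SE, adjusted p = 0.037). Its call was lost without any 1 of 7 mice, day 2 mice 1, 2 and 5 and untreated mice 1 to 4 (0.816 to 1.11, adjusted p = 0.0529 to 0.11), and under both scalings. Adgre1, which encodes the F4/80 antigen, had 0.94, 1.31, 0.18, 0.47 and 0.96 untreated and 0.67, 1.65, 1.74, 1.38 and 1.85 on day 2 and did not pass (0.69 ± 0.27 SE, adjusted p = 0.145), though it did without day 2 mouse 1 (0.88). Vcam1 had 0.43 ± 0.41 SE, Cd5l 0.56 ± 0.17 SE, and the complement genes C1qb 0.65 ± 0.51 SE and C1qa 0.08 ± 0.50 SE. Cd5l had values in 4 untreated and 3 day 2 mice, and C1qa in 3 untreated and 4 day 2 mice. The median of the list was 0.36 after quantile normalization and 0.39 with equal spread.

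Large rises were also found in genes outside the macrophage list. App, the amyloid precursor, had -0.20, -0.04, 0.14, -0.01 and -0.26 untreated and 1.46, 1.08, 1.42, 1.27 and 1.04 on day 2 (1.33 ± 0.12 SE, 2.51-fold, adjusted p = 3.29e-07 in limma), the smallest p among genes that rose. Il1b, the inflammatory cytokine, went from 0.07, 0.13, -0.15, -0.55 and -0.44 to 1.32, 1.86, 1.42, 1.28 and 1.24 (1.61 ± 0.17 SE, 3.05-fold), although its other probe had 0.26 ± 0.14 SE (adjusted p = 0.32). Id2, which binds and blocks helix-loop-helix factors, went from 0.02, -0.70, 0.28, -0.57 and 0.49 to 1.29, 1.09, 1.77, 1.42 and 1.91 (1.59 ± 0.27 SE). Dgat2, which makes triglycerides, had -0.74, -1.57, -0.31, -0.07 and -1.02 untreated and 0.28, 0.48, 0.52, 0.79 and 0.43 on day 2 (1.24 ± 0.24 SE), and the organic anion exporter gene Abcc3 0.66, 0.93, 0.57, 0.94 and 1.43 untreated and 1.76, 1.59, 2.87, 2.09 and 2.61 on day 2 (1.28 ± 0.25 SE). These 5 genes were picked among probes without overlap, so the gap in each is part of that choice. It was narrow for Abcc3, with 1.43 in the highest untreated mouse and 1.59 in the lowest day 2 mouse.

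Col14a1, a fibril-associated collagen, had 1.48, 1.04, 1.33, -0.22 and 1.24 without treatment, with mouse 4 apart, and 2.78, 2.12, 3.00, 1.79 and 2.60 on day 2 (1.49 ± 0.28 SE). Ctsc, a lysosomal protease, had 1.16, -0.10, 0.52, -0.51 and 0.63 untreated and 1.79, 1.43, 1.85, 1.22 and 1.88 on day 2 (1.29 ± 0.31 SE). Ccr3, the eotaxin receptor of eosinophils, had 1.05, 0.51, 0.37, -0.32 and 1.22 untreated and 2.14, 1.69, 1.78, 1.51 and 2.59 on day 2 (1.37 ± 0.30 SE), and it was the 1 of 8 eosinophil, basophil and mast cell genes that passed. Beside the 7.94% of all probes that changed, this count does not set the list apart. Epx, the eosinophil peroxidase, had -0.52 ± 0.21 SE over 4 untreated and 4 day 2 mice. Kank3 had -0.29, 0.82, 0.89, -0.50 and 0.65 untreated and 1.61, 1.52, 2.23, 1.31 and 1.61 on day 2 (1.34 ± 0.30 SE), and Fam181b -0.17, 0.00, 0.28, -0.85 and 0.56 untreated and 0.80, 0.97, 1.67, 0.97 and 1.65 on day 2 (1.25 ± 0.34 SE, adjusted p = 0.0252). Fam181b lost its call without any 1 of day 2 mice 3 and 5 and untreated mice 1 and 4 (1.04 to 1.21, adjusted p = 0.0562 to 0.074). Quantile normalization and equal spread each ended the calls of Col14a1, Ccr3, Kank3, Ctsc and Fam181b, and equal spread that of Abcc3.

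Most tested lysosomal genes had differences above 0, though few passed the threshold. Of 26 tested, 19 had differences above 0 (median 0.29), 4 rose and 1 fell, where 3.12% of all probes rose and 4.82% fell. The rises depended on the scaling, as given below. Besides Ctsc, the peptidase gene Tpp1 rose from -0.04, -1.30, 0.07, 0.13 and 0.08 to 0.66, 0.67, 0.63, 0.61 and 0.58 (0.84 ± 0.21 SE, adjusted p = 0.0166 in limma), with untreated mouse 2 apart from its group. Acp5, the tartrate-resistant phosphatase, had 0.91 ± 0.25 SE and the cholesterol carrier gene Npc2 0.51 ± 0.15 SE. The call of Acp5 was lost without any 1 of day 2 mice 1 and 5 and untreated mice 2, 4 and 5 (0.787 to 0.856), and that of Npc2 without any 1 of day 2 mice 2 to 5 and untreated mice 1 to 4 (0.443 to 0.538); with the replicate number as a block both were lost. Ctse, cathepsin E, fell from 0.36, 0.04, 0.33, 0.78 and -0.08 to -1.52, -1.53, -1.80, -1.43 and -2.32 (-2.01 ± 0.32 SE). The remaining members, such as Psap (0.77 ± 0.39 SE), Gusb (0.76 ± 0.25 SE), Ctsd (0.08 ± 0.20 SE) and Lamp1 (-0.25 ± 0.18 SE), did not pass, although Psap did without day 2 mouse 1 (1.19). Gusb lacked values in some mice of both groups. After quantile normalization 1 of the 26 rose (Tpp1) and 1 fell (Ctse), and with equal spread 0 rose and 1 fell. Acp5 was then 0.51 and 0.53, and Npc2 0.33 and 0.37.

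Inflammatory and complement genes moved singly. Of 18 genes in a list of cytokines, chemokines and related inflammation genes 3 rose and 0 fell (median 0.05). They were the cytokine gene Il1b, Slfn4, a schlafen gene of myeloid cells, and Nfkbia, the inhibitor of NF-kappa-B. Slfn4 had -2.27, -2.50, -1.94, -0.94 and -2.82 untreated and -0.66, -0.47, -1.06, -0.17 and -0.71 on day 2 (1.48 ± 0.34 SE), where untreated mouse 4 overlapped the day 2 mice. Nfkbia had 0.21, 0.31, -0.46, 0.15 and 0.28 untreated and 0.57, 0.77, 0.76, 0.93 and 0.97 on day 2 (0.70 ± 0.19 SE), and its call was lost without day 2 mouse 5 or untreated mouse 3 (0.561 to 0.659) and under both scalings. Il6 (0.02 ± 0.16 SE), Ccl2 (-0.14 ± 0.30 SE) and Cxcl1 (0.33 ± 0.24 SE) did not pass, and Cxcl1 lacked values in both groups. Serping1, the inhibitor of the first complement component, rose from 1.37, 1.36, 1.72, 0.92 and 1.42 to 3.58, 2.54, 2.86, 1.60 and 3.27 (1.41 ± 0.32 SE), 1 of 10 complement genes, where 3.12% of all probes rose. Day 2 mouse 4 stayed within its untreated range, and the call was lost under quantile normalization and equal spread.

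Interferon-stimulated genes gave 1 rise and 1 fall of 13 (median 0.23, and 0.00 with equal spread). Beside the 3.12% of all probes that rose and 4.82% that fell, counts this small do not set the list apart. Mx2, an antiviral GTPase, had 0.34, 0.64, 0.66, 0.58 and 0.18 untreated and 1.15, 1.04, 1.00, 0.69 and 1.05 on day 2 (0.50 ± 0.13 SE, adjusted p = 0.021 in limma), and its call was lost without untreated mouse 1 or 5 (0.428 to 0.467), after quantile normalization (0.19) and with equal spread (0.29). The fall was that of Ube2l6. The 9 tested class I presentation genes had a median of 0.40, with 8 above 0, 0 past the threshold and 3 higher at an unadjusted limma p below 0.05, a limit that 1766 of all 8551 probes passed. The median was 0.11 and 0.10 under quantile normalization and equal spread. Tap1, the peptide transporter, had 0.69 ± 0.21 SE and H2-D1 0.64 ± 0.28 SE. Tap1 passed without any 1 of day 2 mouse 3 and untreated mice 3 and 5 (0.76 to 0.852). Class II genes gave 0 calls of 5, and 0 at an unadjusted p below 0.05, with H2-Aa at 0.10 ± 0.32 SE and H2-Eb1 at -0.11 ± 0.52 SE. H2-Eb1 lacked values in some mice of both groups.

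Markers of mature lymphocytes gave no calls. Beside the 7.94% of all probes that changed, a count of 0 in lists this short does not set them apart. Of the tested genes 0 of 8 passed for B cells, 0 of 7 for T cells, 0 of 6 for NK cells and 0 of 6 for plasma cells. At an unadjusted limma p below 0.05 there were 1 higher B cell gene, 2 lower T cell genes, 0 NK cell genes, and 1 higher and 2 lower plasma cell genes. Among all 8551 tested probes 1766 passed that unadjusted limit. Ms4a1 had 1.66, 2.05, 1.69, 1.86 and 1.94 on day 2, within and above its untreated range (0.27 ± 0.18 SE), and Cd22 1.91, 1.38, 2.28, 2.12 and 1.84 (0.43 ± 0.16 SE, adjusted p = 0.1). Cd22 passed without day 2 mouse 2 (0.57) and turned to -0.05 under quantile normalization and -0.03 with equal spread. Cd4 had 0.37 ± 0.20 SE over 4 and 4 mice, Cd8a 0.03 ± 0.15 SE and the costimulatory receptor gene Cd28 -0.54 ± 0.18 SE (adjusted p = 0.067), which passed without day 2 mouse 3 (-0.63) or untreated mouse 5 (-0.62). Mzb1, a chaperone of antibody-secreting cells, had 2.05, 1.34, 1.37, 1.26 and 2.53 untreated and 1.13, 1.19, 0.28, 0.52 and 1.21 on day 2 (-0.85 ± 0.31 SE, adjusted p = 0.103), and it passed under quantile normalization (-1.21) and equal spread (-1.31). These values compare a gene's share of splenocyte RNA and do not count cells.

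Single genes of the lymphocyte lists did change, though RNA of whole splenocytes does not show in which cells. Izumo1r, the folate receptor 4 of regulatory T cells, had -0.27, -0.15, -0.33, 0.09 and -0.41 in untreated mice and -1.98, -1.62, -1.82, -2.05 and -1.91 on day 2, far apart (-1.66 ± 0.17 SE, 3.16-fold lower, adjusted p = 2.24e-06 in limma), and it was the 1 of 6 regulatory T cell genes that passed. As 7.94% of all probes changed, 1 of 6 does not set that list apart. Ctla4, an inhibitory receptor of regulatory T cells, had -0.56, 0.35, -0.22, -0.61 and -0.12 untreated and -0.17, 0.31, -0.11, -0.57 and -0.29 on day 2 (0.07 ± 0.22 SE). S1pr2, a receptor that holds B cells in germinal centres, fell from -0.33, -0.10, -0.15, -0.34 and 0.10 to -1.12, -1.50, -0.35, -1.18 and -0.87 (-0.84 ± 0.18 SE). Of 25 lymphocyte transcription factor genes 4 rose and 0 fell (median 0.22). Besides Id2, Ahr, the aryl hydrocarbon receptor, rose from 0.49, 0.37, -0.05, -0.17 and 0.50 to 1.26, 1.40, 1.79, 1.11 and 1.51 (1.19 ± 0.19 SE, adjusted p = 0.000422). Stat3 had 0.81 ± 0.22 SE and Nfatc1 0.65 ± 0.18 SE. Stat3 lost its call without any 1 of day 2 mice 3 and 4 and untreated mice 1 and 4 (0.65 to 0.757), and Nfatc1 without any 1 of day 2 mice 2 and 3 and untreated mice 4 and 5 (0.536 to 0.621). Both calls were also lost under quantile normalization and equal spread.

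Neutrophil and platelet genes were variable. Of 5 tested neutrophil genes 0 passed and 1 was lower at an unadjusted limma p below 0.05. Their median was -0.55, -0.06 after quantile normalization and 0.32 with equal spread, so its direction depended on the scaling. S100a9, a calcium-binding protein of neutrophils, had -1.67, -4.0, -1.77, -1.91 and -1.78 untreated and -4.46, -3.78, -2.36, -3.39 and -2.91 on day 2; untreated mouse 2 was among the lowest of all 10 (-1.15 ± 0.54 SE, adjusted p = 0.228). Ltf had -4.25, -3.64, -4.89, -3.96 and -4.77 on day 2 (-0.68 ± 0.42 SE). Platelet genes had a median of 0.62 with 1 of 5 past the threshold, the integrin gene Itga2b (0.85 ± 0.21 SE, adjusted p = 0.0161 in limma; 0.747 without day 2 mouse 2, adjusted p = 0.0525). Pf4, a platelet chemokine, had 0.68, 0.77, -0.13, 0.09 and 0.19 untreated and 1.56, 0.93, 0.09, -0.08 and 2.18 on day 2 (0.62 ± 0.42 SE). Quantile normalization and equal spread each ended the call of Itga2b. Beside the 7.94% of all probes that changed, 1 of 5 does not set the platelet list apart. Among 9 stroma and endothelium markers 0 passed, and 3 were higher and 1 lower at an unadjusted limma p below 0.05, with the matrix gene Dcn at 1.00 ± 0.39 SE and the chemokine gene Cxcl12 at 1.09 ± 0.44 SE. Of all 8551 tested probes 1766 passed that unadjusted limit. Cxcl12 passed without day 2 mouse 4 (1.52).

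The p53 targets, which respond to DNA damage, gave 3 rises and 1 fall of 12 (median 0.02). Cdkn1a, the inhibitor of cell cycle kinases, had -0.23, -0.74, 0.31, -0.19 and -0.03 untreated and 0.91, -0.18, 0.99, 0.48 and 0.92 on day 2, and day 2 mouse 2 stayed within the untreated range (0.80 ± 0.23 SE, adjusted p = 0.0345 in limma). Zmat3 had -0.11, -0.90, 0.15, 0.07 and -0.21 untreated and 0.39, 0.60, 0.46, 0.25 and 0.39 on day 2 (0.62 ± 0.17 SE), and Polk, a polymerase that copies past damaged bases, 0.07, -0.20, -0.04, 0.12 and -0.07 untreated and 0.10, 0.51, 0.58, 0.66 and 0.55 on day 2 (0.50 ± 0.14 SE). Zmat3 had no overlap, and day 2 mouse 1 overlapped the untreated mice for Polk. None of the 3 rises passed after quantile normalization or with equal spread, where the fall alone did, and 0 rises passed without untreated mice 2 and 4. The list held 0 to 2 rises when 1 mouse of the 10 was left out. Cdkn1a lost its call without any 1 of day 2 mice 1, 3 and 5 and untreated mice 1, 2 and 4 (0.66 to 0.797, adjusted p = 0.0605 to 0.0939). Zmat3 lost it without any 1 of day 2 mice 2, 3 and 5 and untreated mice 2 and 5 (0.443 to 0.625), and Polk without any 1 of day 2 mice 2 to 5 and untreated mice 1, 2, 3 and 5 (0.456 to 0.524). Tnfrsf10b, a death receptor, fell from 0.16, 0.07, 0.13, 0.07 and -0.11 to -0.75, -1.21, -0.17, -0.96 and -0.85 (-0.86 ± 0.17 SE). Bbc3 (0.14 ± 0.21 SE) and Trp53inp1 (-0.23 ± 0.15 SE) did not pass. Of 15 apoptosis regulators, Birc3, an inhibitor of apoptosis, rose (0.85 ± 0.18 SE, adjusted p = 0.00443) and Tnfrsf10b was the 1 that fell. Counts this small do not set the apoptosis list apart from all probes, of which 7.94% changed.

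Genes of general cell metabolism gave few calls. Of the tested genes 0 of 27 passed for ribosomal proteins, 0 of 34 for oxidative phosphorylation, 0 of 10 for glycolysis, 0 of 14 for the proteasome and 0 of 14 for ribosome assembly, against 7.94% of all probes. At an unadjusted limma p below 0.05 the ribosomal list had 1 higher gene, oxidative phosphorylation 7 lower, glycolysis 2 higher, the proteasome 1 lower, and ribosome assembly 1 higher and 2 lower. Among all 8551 tested probes 1766 passed that unadjusted limit, so these counts do not set the lists above the rest. Of the oxidative phosphorylation genes 1 passed under quantile normalization and with equal spread. The medians were -0.11 for ribosomal proteins and -0.18 for oxidative phosphorylation. Hspa1a, an inducible heat shock protein, had -0.29, 0.56, -0.32, -0.31 and -0.21 untreated and 1.00, -0.19, 1.41, 0.47 and 1.77 on day 2 (1.01 ± 0.29 SE, adjusted p = 0.0386 in limma), 1 of 16 chaperone genes. Its groups overlapped, and its call was lost with the replicate number as a block and without any 1 of day 2 mice 1, 3 and 5 and untreated mice 1, 3, 4 and 5 (0.786 to 0.982). Idi1, of cholesterol synthesis, fell from 0.58, 0.41, 0.20, -0.28 and 0.60 to -0.05, -1.55, -0.33, -0.30 and -0.22 (-0.79 ± 0.22 SE, adjusted p = 0.0294) and lost its call without untreated mouse 1, 2 or 5 (-0.765 to -0.716). Psat1, of serine synthesis, fell by 0.70 ± 0.14 SE. Flna, an actin cross-linker, rose from -1.19, -1.09, -0.98, -0.88 and -0.93 to -0.20, -0.69, 0.06, 0.26 and -0.44 (0.81 ± 0.18 SE), and the tubulin gene Tubb4b fell by 0.98 ± 0.20 SE. Among collagen and matrix genes Col5a1 fell by 0.84 ± 0.19 SE, with 1 of 18 rising (Col14a1). The receptor gene Tgfbr2 rose (0.53 ± 0.14 SE) with Ccr3, 2 of 15 cytokine receptor genes, and lost its call without day 2 mouse 3 or 5 (0.488 to 0.491), without untreated mice 2 and 4, after quantile normalization (0.28) and with equal spread (0.31). Both scalings also ended the call of Hspa1a, and quantile normalization that of Psat1 (-0.49). With 7.94% of all probes changed, 1 or 2 calls do not set the chaperone, matrix or cytokine receptor list apart.

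The other days place these values in time. Against day 1, 5 of 8547 probes differed on day 2 (0.0585%), and 2 of them name a gene. Day 2 minus day 1 was -2.35 ± 0.33 SE for Alas2 (adjusted p = 0.00295) and -2.17 ± 0.28 SE for Vav2 (adjusted p = 0.00174 in limma). Alas2 had -1.82, -2.77, -0.96 and -2.03 in the 4 day 1 mice and 0.02, -1.47, -0.56, -1.10 and -0.68 in the 5 day 5 mice, so the day 2 mice were the lowest of all 19. Vav2 had -2.08, -1.99, -0.81 and -2.06 and -0.59, -0.87, -1.90, -1.39 and -0.54. Rhd, by contrast, had -2.91, -3.90, -2.37 and -3.29 on day 1, where its values overlapped those of day 2 (day 2 minus day 1 -0.86 ± 0.42 SE, adjusted p = 0.825).

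Against day 5, 428 of 8551 probes differed on day 2 (5.01%). Cdk1 had -1.90, -1.73, -2.10 and -1.53 on day 1 and -0.32, -0.88, 0.04, -0.49 and -0.55 on day 5, and day 2 lay below day 5 (-1.65 ± 0.17 SE, adjusted p = 3.97e-06). Il1b had -0.67, -0.72, -0.53, -0.68 and -0.58 on day 5, beside the lowest untreated mice, and day 2 lay above day 5 (2.06 ± 0.17 SE). App had 1.14, 0.88, 1.14 and 1.10 on day 1 and 0.58, 0.70, 0.57, 0.83 and 0.48 on day 5, and Siglec1 1.66, 1.68, 1.64 and 1.55 and 0.70, 1.47, 1.34, 1.06 and 1.00. For both, day 2 was above day 5 (0.62 ± 0.12 SE and 0.99 ± 0.16 SE). Izumo1r had -1.09, -1.65, -0.78 and -0.95 and -0.03, -0.56, -0.34, -0.96 and -0.54. The day 2 values of Slc40a1 did not differ past the threshold from those of day 5 (0.86 ± 0.26 SE, adjusted p = 0.0643 in limma).

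**Figure D5:**
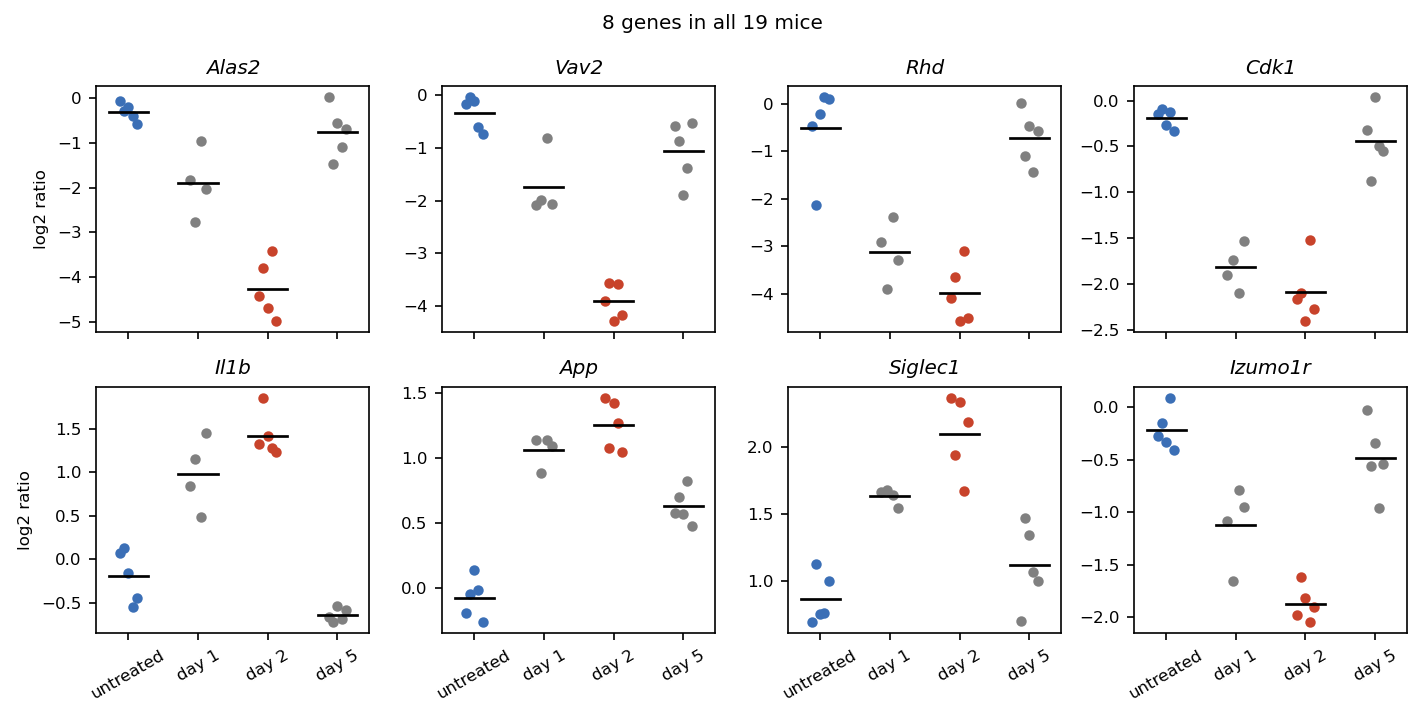
Log2 ratio of spleen over marrow reference (vertical axis) of 8 genes in each of the 19 mice by group (horizontal axis), with bars at the group means. Alas2 and Vav2 are lowest on day 2 in every mouse, Cdk1 and Rhd overlap between days 1 and 2, and App stays above the untreated mice on day 5.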

How the data were processed

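Per the labels' protocols, splenocyte RNA (Qiagen RNeasy Midi) was amplified with Ambion's Amino Allyl MessageAmp II and hybridised as Cy5 against a Cy3 reference. The values that the authors deposited are log2 ratios of sample over reference, with the base taken as 2. Array medians lie between -0.0212 and 0.0132, and values are bounded at 6 in size. For background correction, spot filter and normalization the sources used here give nothing. Of 13443 probes, 10032 name 1 gene, 170 several and 3241 none; 10028 symbols were updated through RefSeq (GRCm38.p6, for names alone).

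The 2 technical arrays of a mouse were averaged, and limma 3.58.1 in R 4.3.3 (lmFit, eBayes) was fitted to all 19 mice of the 4 groups, which share the spread. P-values are two-sided and Benjamini-Hochberg adjusted over the 8551 probes with a value in at least 3 untreated and 3 day 2 mice. Errors are moderated SEs, folds are 2 to the power of the log2 difference, and intervals are at 95%. The number of arrays limits the precision, with a median SE of 0.177. An array of these mice held 5829 to 10407 values. No slide or scan date is given, so no batch was tested.

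Lists (43, with 837 of 1060 symbols on the array and 526 tested) take 1 probe per gene, the one with a value on the most arrays, and are described by counts and medians without a test. Beside the 7.94% of all probes that changed, 1 or 2 calls in a list do not set it apart. Genes were named by rule: the 12 that rose and the 12 that fell most and the 8 next smallest p, past the threshold in all 10 mice without overlap, and up to 5 members of each list past the threshold; members that did not pass, and a few further members that did, were added for contrast after their values were seen. The members and lists were chosen with earlier results of these data known. Mice with the same number were checked for pairing. Their deviations from the group means correlated at 0.112 on average (-0.128 to 0.359, 5 pairs). Mice of other numbers correlated at -0.0264 (-0.202 to 0.225, 20 pairs), so same-number mice lay somewhat higher on average. As the numbers share no source in the labels, the mice were not paired, and a shared source was not tested. Alternatives were other scalings, filters, uses of technical arrays, variance models, thresholds and mice left out. The steps were tested on simulated data. Python 3.11.15 and matplotlib 3.10.9 drew the figures.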

Additional observations from a re-analysis of the deposited data

Results flagged for a closer look

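In 28 cases a single mouse stood apart from the others of its group in a named gene, by a gap wide for the range of the group (Dixon's test at 95%). Chance alone sets apart about 1 in 20 groups. The named genes numbered 91 with a call and 52 without, each with 2 groups, so some of the 28 would arise by chance. The cause of each was not tested. Untreated mouse 2, whose arrays correlated at 0.651, accounts for 7: it was low for Rhd (-2.12), Nusap1 (-1.29), Pcna (-1.74), Tpp1 (-1.3), Gata1 (-1.77) and S100a9 (-4.0) and high for Hspa1a (0.56). Untreated mouse 3 stood apart for Kel (-1.19), Nfkbia (-0.462), Car1 (-1.07), Psap (-1.05) and Tspo2 (-0.898). Untreated mouse 4 did so for Col14a1 (-0.223), Mrc1 (-0.664), C1qb (-0.255) and Mcm5 (0.627), mouse 5 for Gpx1 (0.179) and mouse 1 for Fth1 (-0.182). On day 2, mouse 4 was the highest for Ube2l6 (-1.36), Tyms (-0.858) and Nuf2 (-1.48), mouse 1 was the highest for Klk1b5 (-1.23), H2az1 (-0.778) and Bbc3 (0.184) and the lowest for Polk (0.0951) and Psap (-0.426), mouse 2 was the lowest for Idi1 (-1.55), and mouse 3 was the highest for Tubb4b (-0.196).

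Vav2 and Alas2 differed between day 2 and day 1 in limma, by -2.17 (adjusted p = 0.00174) and -2.35 (adjusted p = 0.00295), which is a test of the difference itself. In data outside the tests, 72 probes had a value in at most 1 untreated and at least 4 day 2 mice, and 2 the other way round. What a missing value stands for is not stated.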

How the results depend on the processing

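The 679 changed probes became 335 after quantile normalization (107 up, 228 down), 351 with equal spread (99 up, 252 down), 441 in a fit of these 2 groups alone, 430 without untreated mice 2 and 4, 316 at an adjusted p of 0.01 and 194 with a fold of at least 2; the cause was not tested, beyond fewer mice or a stricter threshold by construction. Leaving out each mouse gave 496 to 653. With the replicate block 613 probes changed; the numbers share no source in the labels, and among named genes it ended the calls of Acp5, Npc2, Hspa1a, Gpx3 and Zfpm1. Of 91 named genes with a call, 46 kept it under each of 21 settings and 45 lost it under at least 1: 34 after quantile normalization, 38 with equal spread, 33 of them under both, 26 without untreated mice 2 and 4, and 23 without some single mouse. No named gene with a call changed direction. Of the list medians 9 moved by more than the spread between mice under a scaling.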
